A study of Mus musculus with 25 samples.

Results

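Ddit4, Cdkn1a, Foxo3 and Txnip are 4 genes whose products hold back growth, cell division or glucose uptake. Their RNA was followed in whole lung of mice of the inbred strain C57BL/6 over the 96 h that began when food was cut by 2/3. The genes were chosen by their measured signal, which was higher in lungs after 24 to 96 h of restriction than in lungs of fed mice at 0 h. That comparison is therefore described here and carries no test. Every probe set of the array annotation whose only gene symbol was 1 of the 4 was taken, which gave 6 of the 12422 probe sets that were not controls. Ddit4 and Foxo3 had 1 probe set each, and Cdkn1a and Txnip had 2 each. All 6 passed the filter on dim probe sets, and none fell to the floor set for low signals on any array.

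The series measured 24 arrays of the Affymetrix design MG-U74Av2 in 11 groups. Calorie restriction (CR) had lasted 2, 4, 12, 24, 48, 72 or 96 h, with 2 arrays at each time. Of the fed groups, that of 0 h had 4 arrays, and those of 2, 4 and 12 h had 2 arrays apiece. The project, per its title, followed the loss of alveoli, the air sacs in which gas is exchanged, under this diet. The labels call the controls always fed, but also hold the words for the food cut, so their feeding is not certain. They give no age, and no genotype beyond the strain. Arrays of a group are told apart by the letters a and b. The labels leave unsaid if these are separate mice, pools or 1 RNA measured again, so a p-value here may hold no more than the technical spread. At fed 0 h there were also 2 numbers, 1 and 2, with both letters for each. The values are signals, which are brightness units scaled so that all arrays share 1 median (315). A probe set's signal says nothing of its level against another probe set. Whole tissue was measured, so fewer cells of a type and less RNA per cell cannot be told apart.

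Ddit4, also called REDD1, encodes a protein that acts through the TSC complex to restrain mTORC1, the kinase complex that drives protein synthesis and growth when nutrients are plentiful. It is induced by stress signals such as low oxygen, energy shortage, DNA damage and glucocorticoid hormones. Cdkn1a encodes p21, which binds cyclin-dependent kinases and stops the cell cycle, and is the classic target of the tumour suppressor p53. Foxo3 encodes a transcription factor that insulin signalling keeps out of the nucleus through the kinase Akt. In fasting it enters the nucleus and turns on genes of arrest, stress resistance and autophagy, and of amino acid release in muscle. Txnip encodes an arrestin-like protein that binds thioredoxin and promotes the removal of glucose transporters from the cell surface, and its transcription follows glucose supply.

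The regions before the transcription starts are shown because they are where such signals could act on the genes. They come from the RefSeq promoter table (GRCm38.p6), in which all 4 genes were found. The table gives windows of 300 bases, 250 before and 50 after each start, and the 250 bases before the start are printed, 5′ to 3′ on the gene's own strand. Capitals mark every match, on either strand, to 9 motifs named after the sequences. Ddit4 lies on chr10:59949675-59951770 (minus strand) and its printed region is chr10:59951771-59952020. Cdkn1a lies on chr17:29090979-29100722 (plus strand) and its region is chr17:29090729-29090978. Foxo3 lies on chr10:42181845-42276695 (minus strand) and its region is chr10:42276696-42276945. Txnip lies on chr3:96557957-96561857 (plus strand) and its region is chr3:96557707-96557956.
Ddit4: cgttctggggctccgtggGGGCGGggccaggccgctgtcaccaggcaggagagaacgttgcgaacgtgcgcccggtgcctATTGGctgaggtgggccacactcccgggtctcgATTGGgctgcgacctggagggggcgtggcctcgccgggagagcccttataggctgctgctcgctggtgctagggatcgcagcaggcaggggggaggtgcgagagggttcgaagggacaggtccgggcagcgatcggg
Cdkn1a: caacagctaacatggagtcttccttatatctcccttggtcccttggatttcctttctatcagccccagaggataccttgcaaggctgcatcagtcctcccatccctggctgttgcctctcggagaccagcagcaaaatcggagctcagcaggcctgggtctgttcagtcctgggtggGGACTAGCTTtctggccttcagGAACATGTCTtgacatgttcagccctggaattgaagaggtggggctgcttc
Foxo3: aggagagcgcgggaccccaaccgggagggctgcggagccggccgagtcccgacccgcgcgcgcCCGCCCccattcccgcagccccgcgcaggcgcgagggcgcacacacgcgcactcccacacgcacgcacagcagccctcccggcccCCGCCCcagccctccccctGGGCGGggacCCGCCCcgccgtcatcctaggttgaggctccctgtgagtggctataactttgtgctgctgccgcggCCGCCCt
Txnip: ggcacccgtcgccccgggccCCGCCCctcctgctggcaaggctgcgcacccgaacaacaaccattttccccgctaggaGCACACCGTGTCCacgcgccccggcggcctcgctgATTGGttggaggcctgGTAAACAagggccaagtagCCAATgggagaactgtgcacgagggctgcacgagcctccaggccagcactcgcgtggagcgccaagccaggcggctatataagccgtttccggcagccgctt

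The motifs were searched for in the same 300-base windows of all 32851 promoters in the table. A match is a description of letters, not a shown binding site. The Txnip region held 1 palindrome of the glucocorticoid response element (GNACANNNTGTNC), 172 to 160 bases before the start. That motif is found in 0.475% of all promoter windows. Txnip also held 1 FOXO site (GTAAACA), 121 to 115 bases before the start, a motif of 3.65% of windows. The Cdkn1a region held 2 p53 half-sites, 73 to 64 and 51 to 42 bases before the start, and 8.36% of windows hold at least 1. Ddit4 held 2 reversed copies of the CCAAT box, 170 and 137 bases before the start. Txnip held 1 reversed and 1 forward copy, 137 and 102 bases before the start. At least 1 copy on either strand is found in 37.4% of windows. The GC box (GGGCGG), present in 35.7% of windows, was found 5 times in Foxo3, once in Ddit4 and once in Txnip. A second Cdkn1a start, with the window chr17:29093519-29093818, had 2 GC boxes and no other match. No window of the 4 genes held the glucocorticoid half-site (TGTTCT, in 19% of windows). The same was true of the E-box (CACGTG, in 7.15%), the TATA box (TATAAA, in 13.6%) and the cyclic AMP response element (TGACGTCA, in 1.79%). Where these letters were not found, nothing follows about the factors. The matches did not overlap each other.

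The arrays themselves were alike in median but not in range. Their deposited medians were 300.2 to 342.3. The highest signal, however, was 74440 to 99040 on 12 arrays and 31600 to 54310 on the other 12. The first set held fed 0 h number 1, fed 12 h and CR 2, 12, 24 and 48 h, and the second held fed 0 h number 2, fed 2 and 4 h and CR 4, 72 and 96 h. CR 12 h and fed 12 h thus share the high range and CR 4 h and fed 4 h the low one, whereas CR 2 h and fed 2 h differ. The epithelial markers Sftpb and Sftpc of alveolar type II cells were bright on all arrays (summed signal 44790 to 130600), and none of 4 liver markers passed the filter. Heart muscle markers were bright as well, with summed signals of 11590 to 30390 over fed 0 h and CR 24 to 96 h. RNA quality, read as the ratio of 3′ to 5′ signal of Gapdh, was 1.01 to 2.15 over all arrays, with 1.95 and 2.15 at CR 48 h and 1.76 to 2.02 at fed 0 h. The same ratio of actin spread more widely, from 1.24 to 3.81. It was 2.69 and 3.81 at CR 48 h, 1.80 and 2.77 at CR 24 h, and 1.87 to 2.31 at fed 0 h.

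Ddit4 was low in fed lungs and in the first hours of restriction, and high from 12 h on. Its signal was 1224, 909, 845 and 932 on the fed 0 h arrays, 876 and 894 at fed 2 h, 713 and 939 at fed 4 h, and 1032 and 1106 at fed 12 h. CR lungs gave 954 and 855 at 2 h and 754 and 791 at 4 h, then 2414 and 2469 at 12 h. These first CR times lay among the fed arrays, and both CR 12 h arrays lay above all of them, as in 4.14% of the probe sets tested. The later CR arrays gave 2419 and 2109 at 24 h, 3384 and 2725 at 48 h, 4911 and 4231 at 72 h, and 6229 and 5754 at 96 h. In the order of group means, CR 4 h was lowest (773 ± 26, SD, n = 2) and CR 96 h highest (5991). Neighbouring groups overlapped from CR 4 h up to fed 12 h, and again at CR 24 and 12 h. The steps from fed 12 h to CR 24 h, from CR 12 h to 48 h, from 48 to 72 h and from 72 to 96 h had no overlap. No share of all probe sets is given for these steps. Gaps between groups of 2 arrays are not rare, since CR 12 h lay wholly above fed 12 h in 16.8% of probe sets. The step from 48 to 72 h also goes from the high to the low signal range.

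Cdkn1a was also low in fed lungs and climbed in steps. Its brighter probe set had a mean of 943 ± 171 at fed 0 h (SD, n = 4), and the 6 fed arrays of 2, 4 and 12 h lay between 714 and 1124. CR 2 h arrays read 1271 and 1455, while CR 4 h arrays read 668 and 816. Both CR arrays of 2 h lay above both fed arrays of that hour, as in 26.5% of probe sets. The CR and fed arrays of 2 h differ in signal range, and their difference did not pass (limma, adjusted p = 0.811). The 4 h lungs stood within or below the fed range. CR 12 h gave 1475 and 2309, CR 24 h 2472 and 2659, CR 48 h 3899 and 3372, CR 72 h 3440 and 4480, and CR 96 h 4860 and 5277. From 12 h on, each group mean was above the one before it, and of these neighbours only 48 and 72 h overlapped. The other probe set was also low in fed lungs and high from 12 h on, but did not climb at each time. It had a mean of 678 ± 213 at fed 0 h (SD, n = 4), 799 at CR 2 h, 542 at CR 4 h and 1349 at CR 12 h. Its means were 1398, 1632, 1405 and 2402 at 24, 48, 72 and 96 h, and the arrays of 12, 24 and 72 h overlapped each other. Both arrays of 72 h (1509 and 1300) read below both of 48 h (1642 and 1622), and these 2 times differ in signal range. No share of all probe sets is given for the steps of either probe set between the late times.

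Foxo3 took 2 levels rather than a climb. Fed arrays of 2, 4 and 12 h lay between 1999 and 2277. CR 4 h arrays read 2227 and 2255, which is the same range, and CR 2 h arrays read 1314 and 1312, below it. CR 12 h arrays read 4500 and 3518, and all 8 arrays of 24 to 96 h lay between 3252 and 4463 with a median of 3693. The 5 groups from 12 to 96 h overlapped their neighbours in the order of means, which ran from 3693 at 24 h to 4009 at 12 h. Fed 0 h did not hold together. Number 1 read 1022 and 885 and number 2 read 2164 and 2316, so the group mean of 1597 ± 748 (SD, n = 4) matches neither pair. Of all probe sets tested, 35.2% had number 1 below number 2 on every array as Foxo3 did. The numbers differed in markers of other cells too. The summed signal of 4 B cell markers was 8009 to 8956 for number 1 and 1878 to 3673 for number 2, that of 2 neutrophil markers was 3194 to 3559 and 154 to 464, and that of 7 endothelial markers was 15900 to 17070 and 25020 to 31220. Their part in the Foxo3 difference was not tested.

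Txnip was bright throughout and moved least. Its brighter probe set (whose name marks its probes as shared by several transcripts) read 5272, 5095, 4723 and 5345 at fed 0 h. Fed lungs read 7979 and 6150 at 2 h, 7061 and 6666 at 4 h, and 5157 and 5183 at 12 h. Fed lungs thus had a low level at 0 and 12 h and a higher one at 2 and 4 h. CR lungs read 7185 and 6920 at 2 h, 6445 and 6860 at 4 h, and 7443 and 6968 at 12 h, without the drop of the fed 12 h arrays. Later CR arrays read 8389 and 7820 at 24 h, 6759 and 7269 at 48 h, 8280 and 8232 at 72 h, and 9195 and 8583 at 96 h. In the order of group means from CR 4 h (6653) to CR 12 h (7206) each group overlapped its neighbour, fed 2 and 4 h included. The other probe set was dim, with group means from 320 at fed 12 h to 494 at CR 12 h, and did not follow the brighter one.

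**Figure D1:**
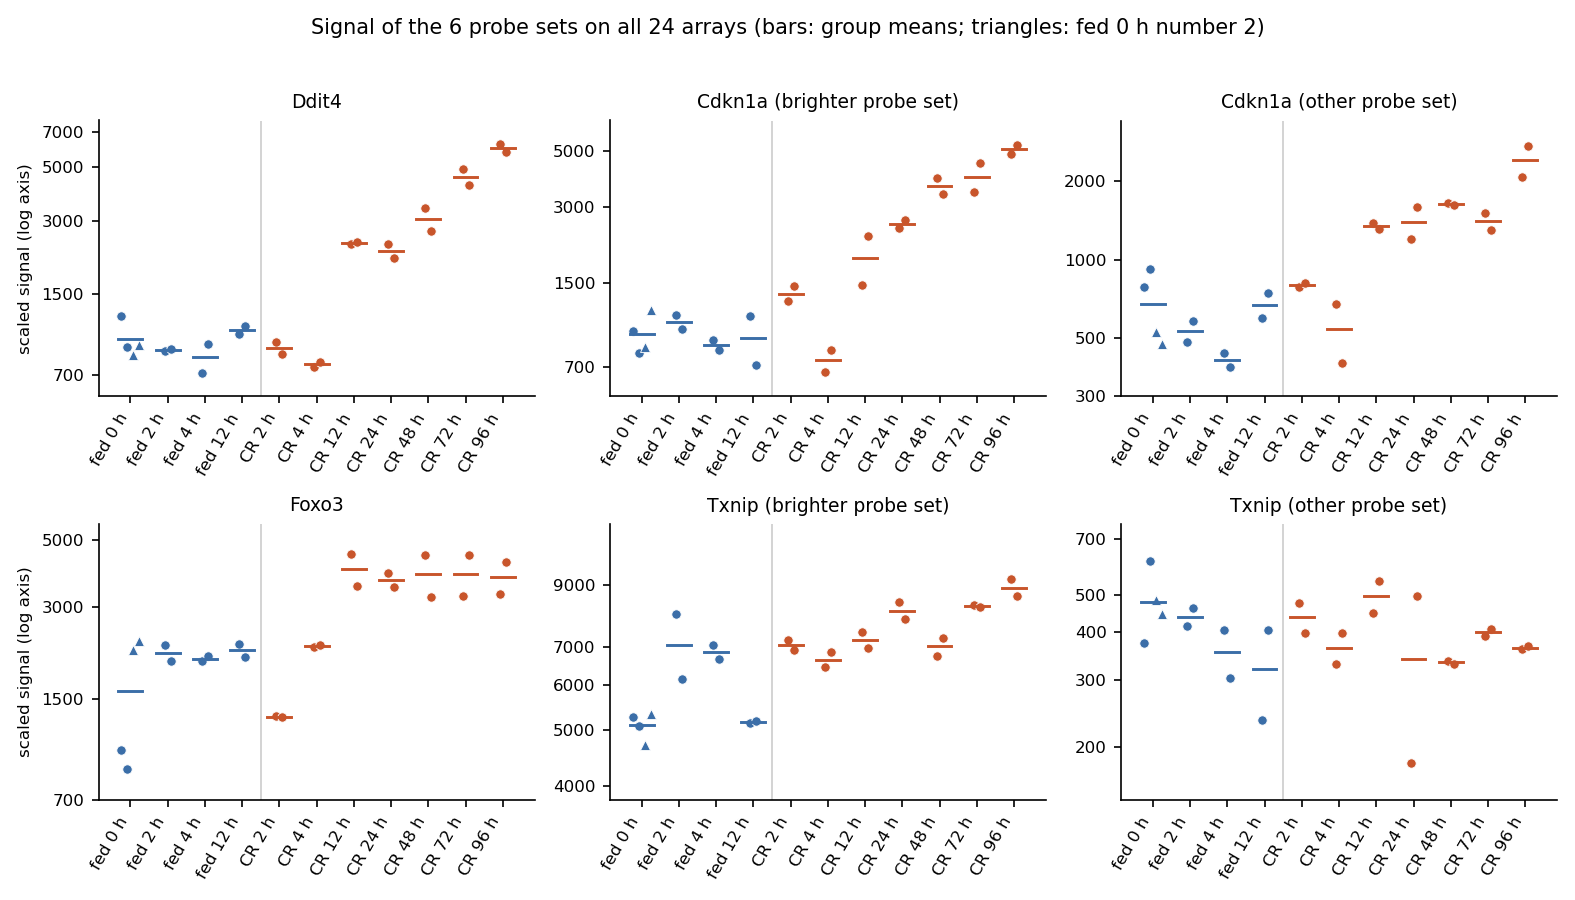
Scaled signal (log axis) of the 6 probe sets on all 24 arrays, by group; points are arrays, bars are group means, blue is fed, orange is CR, and triangles are the fed 0 h arrays numbered 2. Ddit4, both Cdkn1a probe sets and Foxo3 sit higher on every CR array from 12 h on than on any fed array; Txnip overlaps fed 2 and 4 h, and its other probe set shows no such pattern.

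All 10 CR arrays from 12 to 96 h lay above all 10 fed arrays for Ddit4, both Cdkn1a probe sets and Foxo3. The same held for 43 of the 7440 probe sets tested (0.578%). Since 8 of these 10 arrays belong to the comparison by which the genes were picked, the count is a description. The lowest of the 8 late arrays and the highest fed array were 2109 and 1224 for Ddit4, 2472 and 1174 for Cdkn1a, and 3252 and 2316 for Foxo3. For Txnip 5 of the 8 late arrays and neither CR 12 h array exceeded the highest fed array, which was 1 of the 2 at fed 2 h.

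At 12 h, with fed mice of the same hour as controls, Ddit4 was higher under restriction. The 2 CR arrays (2441 ± 39, SD, n = 2) exceeded the 2 fed arrays (1069 ± 52) 2.28-fold, with a 95% interval of 1.73 to 3.01 (limma, adjusted p = 0.0105). It was the only probe set of the 4 genes to pass, and 11 of the 7440 tested did (0.148%). These lungs were no part of the comparison that picked the genes, although the genes were picked with results of the whole series in view. The call needed all 4 arrays. Without either CR array its adjusted p was 0.112 and 0.101, and without either fed array 0.0771 and 0.0861 (limma), while the log2 difference kept to 1.14 to 1.24. Over all alternatives the adjusted p of Ddit4 (limma) was 0.00387 to 0.112.

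Cdkn1a at 12 h was 1892 ± 590 under CR and 913 ± 282 in fed mice (SD, n = 2 each), a ratio of 2.07 (1.45 to 2.96; limma, adjusted p = 0.152). Its other probe set gave 1349 and 671, a ratio of 2.02 (1.33 to 3.08; limma, adjusted p = 0.361). Both intervals lie above 1, but neither result passed the correction over all probe sets. For Foxo3 the means were 4009 ± 694 and 2171 ± 150, a ratio of 1.84 (1.11 to 3.03; limma, adjusted p = 0.813). In a fit of the 6 early groups alone, which leaves out fed 0 h, this difference passed, at an adjusted p of 0.0217 (limma). The main fit takes fed 0 h as a single group. The Foxo3 gap between its numbers therefore enters the spread behind every Foxo3 test and interval of that fit (residual SD 0.384 on the log2 scale). Txnip gave 7206 ± 336 and 5170 ± 18, a ratio of 1.39 (1.13 to 1.72; limma, adjusted p = 0.446), and its other probe set 1.59 (0.942 to 2.70). In all 6 probe sets both CR 12 h arrays lay above both fed 12 h arrays, as they did in 16.8% of all probe sets. Before correction, 5 of the 6 had a p under 0.05, against 409 of the 7440.

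At 2 and 4 h none of the 6 probe sets passed, nor did any of the 7440 (0%; limma). Before correction, the p was under 0.05 for 472 probe sets at 2 h and 130 at 4 h, with none of the 6 among them. Ddit4 stood at a ratio of 1.02 (95% interval 0.773 to 1.35) at 2 h and had a log2 difference of -0.08 (-0.48 to 0.32) at 4 h. Txnip stood at 1.01 (0.817 to 1.24) and 0.969 (0.786 to 1.19). The intervals of both genes span 1. For Cdkn1a the ratios were 1.29 (0.904 to 1.84) and 0.868 (0.609 to 1.24) on the brighter probe set. The other had log2 differences of 0.59 (-0.02 to 1.20) and 0.34 (-0.26 to 0.95), so that the probe sets differed in direction at 4 h. Foxo3 at 2 h had a ratio of 0.62 (0.375 to 1.02; limma, adjusted p = 0.776), with both CR arrays below both fed arrays, as in 19.6% of probe sets. The CR and fed arrays of 2 h differ in signal range. With that range as a block, the Foxo3 difference at 2 h changed its sign, from -0.69 to 0.54 on the log2 scale, so no direction can be given for it. Only fed 0 h has arrays in both ranges, so the block's estimate comes from its 2 numbers alone.

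Over the mean of the 3 early hours the log2 differences were 0.38 for Ddit4, 0.40 and 0.65 for the Cdkn1a probe sets, 0.11 for Foxo3 and 0.15 and 0.24 for the Txnip probe sets. None passed (limma, adjusted p of 0.987 or above), and 2 of 7440 probe sets did (0.0269%). With the signal range as a block the Foxo3 difference was 0.52 and passed (limma, adjusted p = 0.019). That block was estimated from the 2 numbers of fed 0 h alone, so this call carries over the Foxo3 gap between them. Without the block and before correction, 3 of the 6 had a p under 0.05 (limma), against 244 of the 7440. They were Ddit4 and both Cdkn1a probe sets. Whether the effect differed between 2, 4 and 12 h was tested with a moderated F. The adjusted p was 0.276 for Ddit4, 0.875 for Cdkn1a and 0.946 for both Foxo3 and Txnip (limma), and none of the 7440 passed (0%), with 358 under 0.05 before correction. Ddit4 passed this test with array weights (0.0256), with the early groups alone (0.0472) and with signal range as a block (0.0114), and Foxo3 with the early groups alone (0.0252).

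**Figure D2:**
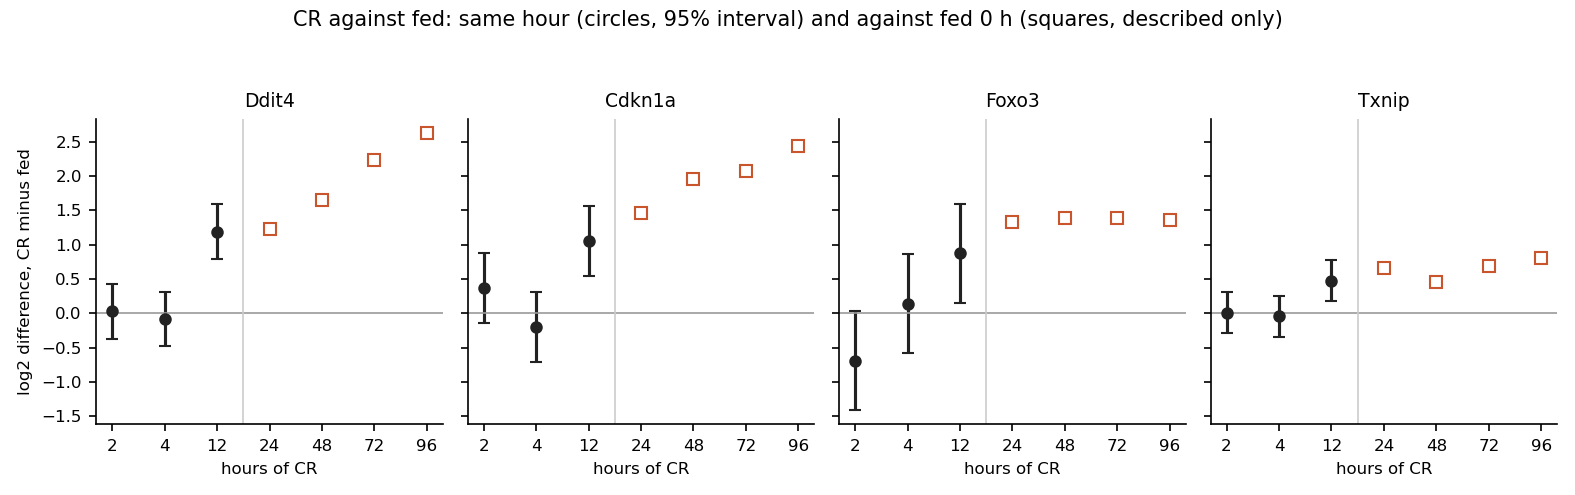
Log2 difference of CR minus fed for the brightest probe set of each gene, by hours of CR; filled circles compare with fed lungs of the same hour and carry 95% intervals, and open squares compare with fed 0 h and are shown without intervals because that comparison picked the genes. All intervals at 2 and 4 h include 0 and all at 12 h lie above it (1.19 for Ddit4, 1.05 for Cdkn1a, 0.88 for Foxo3 and 0.48 for Txnip); from 24 to 96 h Ddit4 goes from 1.22 to 2.63 and Cdkn1a from 1.46 to 2.44, while Foxo3 stays at 1.34 to 1.39.

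Against fed 0 h, the mean of CR 24 to 96 h was 3.82-fold higher for Ddit4 (3970 ± 1558, n = 8, against 977 ± 169, n = 4; SD). For Cdkn1a it was 3.95-fold higher, and 2.54-fold on the other probe set. On Ddit4 and the brighter Cdkn1a probe set each later time stood higher. Ddit4 stood at 2.34-, 3.14-, 4.71- and 6.19-fold the fed 0 h level at 24, 48, 72 and 96 h, and the brighter Cdkn1a probe set at 2.75-, 3.89-, 4.21- and 5.43-fold. The other Cdkn1a probe set stood at 2.12-, 2.50-, 2.15- and 3.65-fold, lower at 72 than at 48 h. Foxo3 stood at 2.53-, 2.61-, 2.62- and 2.56-fold, which is flat. Txnip stood at 1.59-, 1.37-, 1.62- and 1.74-fold, and its other probe set was 1.36-fold lower than fed 0 h over the mean of the 4 times. No test is given for these values, which chose the genes. Of all probe sets tested, 9.85% were called higher in this comparison and 8.24% lower.

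The late difference from fed lungs moved little with the choice of control for Ddit4 and the brighter Cdkn1a probe set, and more for the other Cdkn1a probe set, Foxo3 and Txnip. The late difference of Ddit4 was 1.94 on the log2 scale with all fed 0 h arrays, 1.81 with number 1, 2.06 with number 2 and 2.01 with the fed lungs of 2, 4 and 12 h. Those of the brighter Cdkn1a probe set were 1.98, 2.08, 1.89 and 1.99, and those of the other 1.34, 0.96, 1.73 and 1.65. Foxo3 gave 1.37, 1.98, 0.75 and 0.84, so that the number 1 arrays stood apart from all other fed arrays. Txnip gave 0.65, 0.63, 0.68 and 0.35, and fed 2 and 4 h lungs had more Txnip signal than fed 0 h lungs. Between CR 24 and 48 h and number 1, all of the high signal range, the difference was 1.31 for Ddit4, 1.80 and 0.82 for the brighter and the other Cdkn1a probe set, 1.98 for Foxo3 and 0.54 for Txnip. Between CR 72 and 96 h and number 2, all of the low range, it was 2.56, 2.17 and 1.87, 0.76 and 0.77 in the same order.

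**Figure D3:**
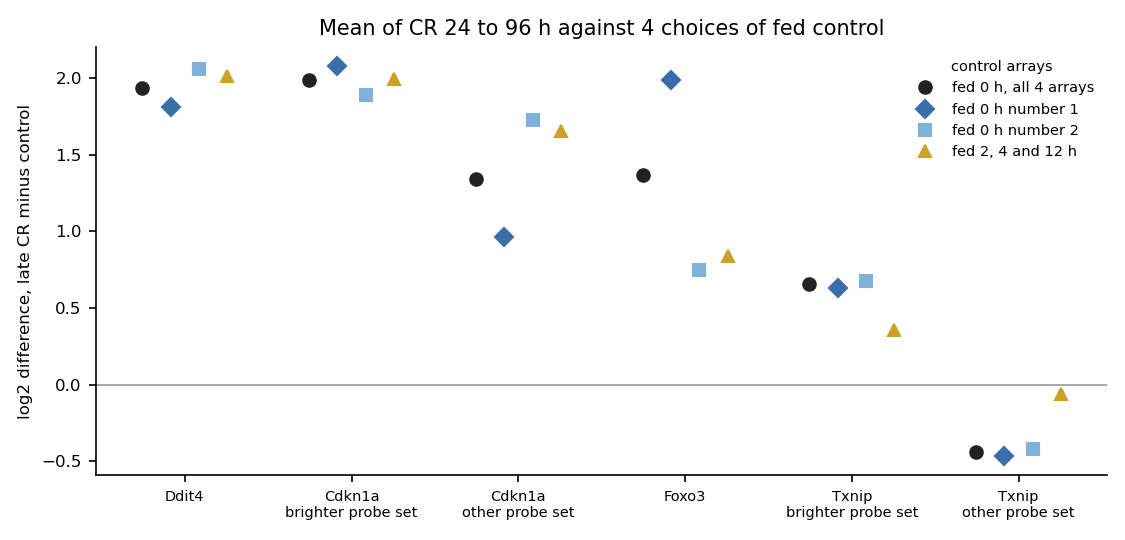
Log2 difference of the mean of CR 24 to 96 h minus fed lungs for the 6 probe sets, with 4 choices of fed arrays marked by shape. Ddit4 and the brighter Cdkn1a probe set lie between 1.81 and 2.08 with every choice, Foxo3 spreads from 0.75 to 1.98, and the other Txnip probe set is below 0 throughout.

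Among the restricted lungs themselves, a comparison that uses no fed array, Ddit4 differed between 24, 48, 72 and 96 h (moderated F, limma, adjusted p = 0.00395). The same late arrays, set against fed 0 h, picked the genes, so this result does not come from separate data. Ddit4 was the only 1 of the 6 to pass in this fit, and 43 of 7440 probe sets passed (0.578%). Its signal at 72 and 96 h was 1.99-fold that at 24 and 48 h (95% interval 1.64 to 2.43; limma, adjusted p = 0.00129). In that comparison 1.51% of probe sets were called higher. All 4 arrays of 72 and 96 h read above all 4 of 24 and 48 h, as in 8.25% of probe sets. The earlier pair lies in the high signal range and the later pair in the low one, so time and range cannot be told apart between the pairs. Markers of other cells also moved between them. The summed signal of 5 macrophage markers was 19520 to 23320 at 24 and 48 h and 39540 to 43370 at 72 and 96 h, that of 2 alveolar type II markers 102300 to 123000 and 49060 to 65420, and that of 6 heart muscle markers 18160 to 23610 and 11590 to 14370. The alveolar type II sum also split by signal range in fed lungs. It was 120700 to 123000 at fed 12 h (high range) and 52680 to 55850 at fed 2 and 4 h (low range). The part of all these markers in the Ddit4 difference was not tested. Within each pair Ddit4 gave ratios of 1.34 (48 over 24 h, 1.02 to 1.77) and 1.31 (96 over 72 h, 0.996 to 1.73), and neither passed (limma, adjusted p of 0.806 and 1), where 1 probe set passed in each (0.0134%). In a fit of fed 0 h and the 4 late groups alone the F test lost its call (adjusted p = 0.245), as did the comparison of the pairs (0.0589).

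Cdkn1a was 1.46-fold higher at 72 and 96 h than at 24 and 48 h on its brighter probe set (1.14 to 1.88; limma, adjusted p = 0.11), and 1.21-fold on the other (0.903 to 1.64). Foxo3 did not pass between the late times (moderated F, limma, adjusted p = 0.9996), and the later pair stood at 1.01-fold the earlier (0.708 to 1.44). Txnip stood at 1.14-fold (0.98 to 1.32). With the signal range as a block the comparison of the pairs turned for Foxo3, from 0.01 to -1.22 on the log2 scale (limma, adjusted p = 0.000298). The same block took the other Cdkn1a probe set from 0.28 to 1.05 (0.00528) and Ddit4 from 0.996 to 1.246. The F test between the late times then also passed for Foxo3 (adjusted p = 0.00327) and the other Cdkn1a probe set (0.00484). The brighter Cdkn1a probe set passed in the comparison of the pairs with array weights (0.0446). Only fed 0 h has arrays in both ranges, so the block's estimate comes from its 2 numbers alone. Foxo3 differed between these numbers, with log2 means of 9.89 and 11.13. Block values of groups that differ in range carry such a gap over, so they cannot decide whether the late times differ.

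Among the fed lungs, Txnip was lower at 12 h than at 2 and 4 h by a factor of 1.34 (95% interval 1.12 to 1.61; limma, adjusted p = 0.147), in a comparison where 0.470% of probe sets passed. Both 12 h arrays read below all 4 of 2 and 4 h, as in 14.9% of probe sets. Without the filter on dim probe sets the same difference passed (adjusted p = 0.0425). The moderated F between fed 2, 4 and 12 h passed for none of the 6, and for 19 of 7440 probe sets (0.255%; limma). Its adjusted p was 0.308 for Txnip, 0.69 for Ddit4, 0.865 for Cdkn1a and 0.991 for Foxo3. With the signal range as a block, Foxo3 passed this test (moderated F, limma, adjusted p = 0.00168). The block's estimate comes from the 2 numbers of fed 0 h alone, between which Foxo3 differed. That call thus carries over their gap and cannot show a difference between the fed times. Fed 12 h lies in the high range and fed 2 and 4 h in the low one. Fed Ddit4 at 12 h was 1.26-fold the level of 2 and 4 h (0.988 to 1.60).

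The 4 genes resembled each other to different degrees across the 11 group means, which share arrays and scaling, so the correlations are given as a description. Pearson's r of log2 signal was 0.963 between Ddit4 and Cdkn1a (0.939 over the 24 arrays) and 0.948 between the 2 Cdkn1a probe sets (0.87). It was 0.839 between Ddit4 and Foxo3 (0.734) and 0.679 between Ddit4 and Txnip (0.658). The 2 Txnip probe sets had r = -0.0994 (-0.202 over arrays), so that they do not describe the same pattern.

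The patterns most like that of Ddit4, among 6724 other probe sets with 1 gene symbol, were those of Cebpd (r = 0.979 over the 11 group means), Slc10a6 (0.965), Dusp1 (0.964), Rin2 (0.964) and Cdkn1a (0.963). Cebpd, a transcription factor of the acute-phase response, had a mean signal of 4775 ± 907 at fed 0 h (SD, n = 4), 7944 ± 619 at CR 12 h (n = 2) and 10620 ± 1927 at CR 24 to 96 h (n = 8). For Cdkn1a they were Rin2 (0.973), Ddit4 (0.963), Igfbp6 (0.962), Pim3 (0.958) and Slc10a6 (0.956). Rin2 encodes an activator of Rab5, and Pim3 a serine/threonine kinase, which went from 2020 ± 129 at fed 0 h to 4223 ± 973 at 24 to 96 h. For Foxo3 the nearest was Dock9, an activator of Cdc42 (r = 0.986, and 0.984 over the 24 arrays). Its signal was 3689 ± 1818 at fed 0 h and 8389 ± 1209 at 24 to 96 h, with the same wide spread of the fed 0 h arrays as Foxo3. After it came Nedd4l (0.97), Sema3f (0.965), Abcb1a (0.957) and Spsb1 (0.954). Txnip had no pattern as close, with Tnfaip1 (0.929), Ambra1 (0.902), Rbpms (0.900), Inpp5b (0.896) and Cand1 (0.893) leading. Ranked over the 24 arrays, 3, 3, 2 and 0 of these 5 stayed among the 5 nearest for Ddit4, Cdkn1a, Foxo3 and Txnip.

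The other genes of the pathways were read from 7 lists with 94 distinct measured genes besides the 4. The lists were chosen with earlier results of these data known, so their counts and p-values are not independent of those results. In the mean of CR 24 to 96 h against fed 0 h, 17 of the 94 genes were higher and 5 lower (limma), where 10.1% and 8.57% of all 5706 genes tested were. The median log2 difference was 0.10 over the 94 and 0.00 over all genes. Of 22 genes of mTORC1 signalling, on which Ddit4 acts, 6 were higher and none lower, with a median of 0.27. They were Sesn1, a stress-induced brake on mTORC1 (1.57-fold, limma, adjusted p = 0.00418), Eif4b, a translation initiation factor (1.42-fold, 0.00693), Eif4ebp2, a repressor of translation (1.82-fold, 0.0127), Ulk1, the kinase that starts autophagy (1.57-fold, 0.0236), Pik3ca and Tsc1. Members of opposite roles thus moved the same way. Tsc1, part of the complex through which Ddit4 acts, was 1.46-fold higher (limma, adjusted p = 0.0419), from 314 ± 61 (n = 4) to 455 ± 74 (n = 8; SD).

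The cyclin-dependent kinase inhibitors other than Cdkn1a did not pass. The 4 that were measured had log2 differences of -0.46 for Cdkn2c, -0.28 for Cdkn2d, -0.22 for Cdkn2b and 0.05 for Cdkn1c (limma, adjusted p of 0.0831 or above). Of 17 cyclins, kinases and replication genes, 1 was higher and 3 were lower, where 10.1% and 8.57% of all genes tested were. Rbl2, a pocket protein that represses cell cycle genes, was 1.58-fold higher (limma, adjusted p = 0.00889). Ccnb2, a mitotic cyclin, was 1.35-fold lower (0.0107), Rbl1, another pocket protein, 2.05-fold lower (0.0151), and Mcm5, part of the replicative helicase, 1.47-fold lower (0.029). Beside the same shares of all genes, 4 of 18 genes of the p53 pathway and growth arrest were higher and none lower, with a median of 0.22. These were Sesn1, the death receptor Fas (1.78-fold, limma, adjusted p = 0.0121), Gadd45g, a stress-induced arrest gene (1.61-fold, 0.0255) and Perp (1.41-fold, 0.0284). Mdm2, a standard target of p53, had a log2 difference of 0.21 (limma, adjusted p = 0.427).

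Each list count that follows stands beside 10.1% of all genes tested called higher and 8.57% called lower. Sesn1 and Rbl2 are in more than 1 list, so the list counts share genes. Of 20 FOXO factors and targets, 6 were higher and 1 was lower. The higher ones included Sesn1, Rbl2, the pro-death gene Bcl2l11 (1.70-fold, limma, adjusted p = 0.0102) and Bcl6, a transcriptional repressor (1.59-fold, 0.0161). The death ligand Tnfsf10 was 2.30-fold lower (0.0089). Foxo4, the only other FOXO factor measured, had a log2 difference of -0.13 (limma, adjusted p = 0.636). Of 13 genes of thioredoxin, arrestin-domain proteins and glucose sensing, 2 were higher, Arrb1, which encodes beta-arrestin 1 (2.20-fold, limma, adjusted p = 0.00798), and Hk2, a hexokinase that traps glucose in the cell (2.03-fold, 0.00993). Txn1, the thioredoxin that Txnip binds, had a log2 difference of -0.46 (limma, adjusted p = 0.0536). Of 5 genes of glucocorticoid handling, Fkbp5, a standard target of the glucocorticoid receptor, was 9.41-fold higher (limma, adjusted p = 6.76e-10), and Fkbp4, a chaperone of that receptor, 1.27-fold lower (0.0392). This list too was chosen with earlier results known, so its p-values are no separate evidence.

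These list counts leaned on the fed 0 h arrays. Without fed 0 h 1a there were 9 higher and 1 lower, and without 1b 8 and 0. Without 2a the lower count was 13, without 2b it was 12, and without CR 72 h 1b or CR 96 h 1b it was 3. In a fit of fed 0 h and the late groups alone only 2 were higher and 1 lower, and with array weights 4 and 0.

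**Figure D4:**
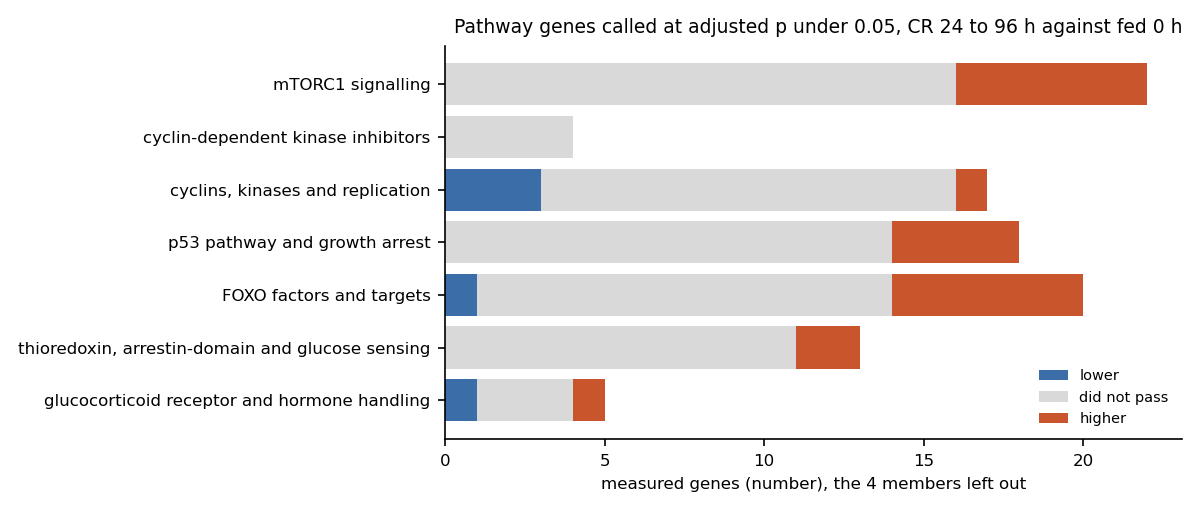
Number of measured genes in each of 7 pathway lists that were higher (orange), lower (blue) or did not pass (grey) at CR 24 to 96 h against fed 0 h, the 4 genes themselves left out (limma, adjusted p under 0.05). mTORC1 signalling and the FOXO list had 6 higher genes each, and the cyclin-dependent kinase inhibitors none in either direction. Of all genes tested, 10.1% were higher and 8.57% lower.

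At 12 h, 9 of the 94 genes had a p under 0.05 before correction (limma), against 409 of the 7440 probe sets tested. Only Fkbp5 passed the correction. It read 4280 ± 145 under CR and 1530 ± 11 in fed mice (SD, n = 2 each), 2.80-fold higher (limma, adjusted p = 0.0329). The count was 0 without any 1 of the 4 arrays compared, and also without any 1 array of fed 4 h, CR 4 h or CR 72 h. Eif4b and Gadd45g had log2 differences of 0.78 and 1.32 (limma, adjusted p of 0.152 and 0.175). Over the early mean no list gene passed. Before correction 3 of the 94 had a p under 0.05 (limma), against 244 of the 7440 probe sets, which is a like share.

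Markers of other cells moved beside these values, and their part in the results was not tested. At 12 h none of the marker genes passed, but the summed signal of 4 B cell markers was 1876 to 2391 under CR and 4344 to 4434 in fed lungs, and that of 2 neutrophil markers was 406 to 470 and 590 to 1013. The 2 alveolar type II markers summed to 110700 to 130600 and to 120700 to 123000. At 24 to 96 h against fed 0 h, 10.1% of all genes tested were higher and 8.57% lower. Among the markers, 2 of 4 of B cells, 3 of 6 of heart muscle, 2 of 4 of smooth muscle and 1 of 3 of fat were lower. Tie1 and Tek among 7 endothelial markers were higher, and so was Sftpb among 2 alveolar type II markers (limma). The summed B cell signal was 1672 to 2957 on the late arrays and 1878 to 8956 at fed 0 h. The heart muscle sum was 11590 to 23610 and 23840 to 30390. The endothelial sum was 20640 to 36120 and 15900 to 31220. Without CR 48 h, 1 of the groups with high 3′ to 5′ ratios, the late log2 differences were 2.03 for Ddit4, 1.99 for Cdkn1a, 1.36 for Foxo3 and 0.72 for Txnip.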

How the data were processed

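The authors' deposited values were linear probe set intensities of 24 MG-U74Av2 arrays. How they were computed from the scans was not given in the sources used here. The submitters' processing notes name MAS5 for an array of another design (45101 probe sets), which was left out because its labels conflict. Groups and times came from the labels.

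The deposited values of an array were multiplied so that its median met the middle of the 24 medians. Values below a signal of 80.37 (25th percentile) were raised to it, and log2 was taken. A probe set was kept if it reached its array's median on at least 2 arrays, which left 7440 of 12422. The 11 group means were fitted with lmFit and eBayes (trend on, 13 residual degrees of freedom) of limma 3.58.1, run in R 4.3.3. Tests were two-sided, and a result passed when its p, adjusted by Benjamini-Hochberg across the 7440, was under 0.05. Ratios are of geometric means with 95% intervals from that fit, and levels are arithmetic means with the SD. The brightest probe set stood for a gene in lists, and the fit was tested on simulated data.

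The 4 genes and all lists were chosen with earlier results of these data known, so neither is independent of them. Genes named beside the 4 were, per list, up to 4 by smallest p in the late mean and up to 2 in the early mean. All cyclin-dependent kinase inhibitors and FOXO factors measured, the 5 nearest patterns per gene, and markers were named as well. Pik3ca, Tsc1, Bcl6 and Mdm2 were named after their values were seen. The alternatives tried changed scaling, floor, filter, variance model, weights, blocks, the groups fitted and the control arrays, or left out 1 array at a time. Signal range as a block for the early and F tests, and the late mean without CR 48 h, were added after seeing the data. With 2 arrays in most groups, precision is low.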

Additional observations from a re-analysis of the deposited data

Results flagged for a closer look

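Ddit4 is listed because its difference from fed 0 h was not the same at the 4 late times. The moderated F test between CR 24, 48, 72 and 96 h gave an adjusted p of 0.00395 (limma), with 2264, 3054, 4571 and 5991 as mean signals (2 arrays each). The same late arrays helped to pick the gene, so this p does not come from separate data. In a fit of fed 0 h and the 4 late groups alone the F test lost its call (limma, adjusted p = 0.245). The 8 arrays of these groups and both of CR 12 h lay above all 10 fed arrays, as in 0.578% of the probe sets tested. The late groups against fed 0 h are the comparison by which the gene was picked, so this overlap is a description only. The later pair of times and the earlier pair also differ in signal range.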

How the results depend on the processing

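Precision is limited by 2 arrays per group and by the unknown meaning of a and b. Ddit4 at 12 h kept its direction in all 34 alternatives (1.14 to 1.24) and lost its call in the 4 that left out an array compared. Foxo3 at 12 h ranged from 0.70 to 1.05 with an array left out, and passed with the early groups alone (0.88, adjusted p = 0.0217). The probe sets called at 12 h numbered 36 without the filter, 6 without the trend, 7 with the letter as replicate block and 33 with the early groups alone (1 to 14 with an array left out). The pathway genes higher then numbered 0, 0 and 2 without the trend, with the block and with the early groups alone (0 to 1 with an array left out). Called in the early mean were 10, 0, 1 and 1 in the same order, and 1 with 4 and 12 h alone (0 to 3 with an array left out). The letters share no more than a name: of 66 correlations of the a minus b differences between groups, 2 exceeded 0.1 (-0.19 to 0.123). The replicate block changed no call of the 4 genes.

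In the late mean the called probe sets numbered 288 with array weights, 347 with the late groups alone, 3679 and 577 with fed 0 h number 1 and 2, 3423 and 793 within the high and low range, and 2543 with the range as block (542 to 2248 with an array left out). The pathway genes higher and lower were 4 and 0 with weights, 2 and 1 with the late groups alone, 29 and 20 with number 1, and 27 and 15 with the range block. With number 2, 10 were higher; lower were 8 with the other fed lungs and 23 within the high range. An array left out gave 8 to 22 higher and 0 to 13 lower. Foxo3 moved to 1.98 and 0.75 with number 1 and 2, 0.84 with the other fed lungs, and 1.98 and 0.76 within the ranges; Txnip to 0.35, 0.54 and 0.77 with the other fed lungs and within the ranges; Ddit4 to 1.31 and 2.56 within them.

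Of the differences that changed sign, none was called in the fit reported. The range block was estimated from the 2 numbers of fed 0 h alone. With quantile normalization, unscaled values and the range block, Foxo3 between the late pairs became -0.021, -0.016 and -1.22, and Txnip at 2 h -0.16, -0.049 and -0.035. Txnip at 4 h became 0.083 and 0.041 with the first 2. Ddit4 became -0.030 (2 h) and 0.0033 (4 h) unscaled, and -0.22 at 2 h with the range block, which also gave -0.18 for the other Cdkn1a probe set and 0.54 for Foxo3 at 2 h. With an array left out the ranges were -0.051 to 0.11 and -0.28 to 0.12 for Ddit4 at 2 and 4 h, -0.41 to 0.23 for Cdkn1a and -0.0078 to 0.13 for Foxo3 at fed 12 h, -0.031 to 0.72 for the other Cdkn1a probe set at 4 h, -0.10 to 0.13 for Foxo3 between the late pairs, and -0.18 to 0.20 for Txnip at 2 h. For the other Txnip probe set they were -0.14 to 0.13, -0.16 to 0.25, -0.73 to 0.046 and -0.092 to 0.63 at 2 h, 4 h, fed 12 h and between the late pairs. Where no cause is named, the cause was not tested.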
